A study of Oikopleura dioica with 2 samples.

Results

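In 18 groups of assembled transcripts of Oikopleura dioica, a component was lower by 4-fold or more in larvae than in eggs. Beside it in the same group sat a component that was higher in larvae by 4-fold or more. These switching groups held 38 such components within the level limits given below, 19 biased to the egg and 19 biased to the larva. The whole table held 57962 components. A component is 1 row of the table, the unit to which the authors assigned a level. Its identifier gives a component number followed by a subcomponent number, and components with the same first number formed a group. A group was kept when it held an egg-biased component, at 10 to under 100 FPKM in eggs and lower by 4-fold or more in larvae, and also a larva-biased one, at 10 to under 100 FPKM in larvae and higher by 4-fold or more than in eggs. FPKM is the number of sequenced fragments relative to transcript length and to the mapped fragments of the library, and fold differences were taken on the log2(FPKM + 1) scale. The members were chosen by the measured levels of both stages, so these levels and differences are a description and carry no test.

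Eggs are loaded by the mother with RNA that serves the embryo before its own genome is active. During development this maternal RNA is degraded and zygotic transcription takes over, and a gene can pass from a maternal to a zygotic transcript form, for example by another start site, another exon choice or expression of a related gene copy. Oikopleura dioica is a planktonic tunicate with a compact genome that keeps its tadpole form for life, and many of its transcripts receive a short spliced leader in trans. In an assembly made from reads, the pieces of 1 gene, its alleles and near-identical gene copies can all end up as separate entries that share sequence. A group as used here can therefore be any of these, and the table does not say which. Groups were formed from the identifiers alone, so whether their components are related in sequence was not tested.

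The study set out to describe the maternal and zygotic transcriptomes, and sequenced polyadenylated RNA of unfertilized eggs and of whole larvae at 8 hours post-fertilization (hpf) in strand-specific paired-end libraries. All animals came from cohorts bred over several generations from a single pair and kept at 20 °C without an experimental treatment. Eggs were pooled from 46 females and larvae from the offspring of 63 adult pairs, and no genotype is given beyond this descent. The labels name 1 sample per stage, the design text names replicates, and the table gives 1 value per stage. Every value above 0 ended in 0 or 5 at the third decimal (46.8% ended in 5 in eggs and 49.4% in larvae), which is what the mean of a pair of values with 2 decimals leaves. Each value was therefore read as the authors' mean, with no error, SD or p-value attached, and no difference below has a replicate check. The egg column summed to 1158185 FPKM and the larval column to 1269958 FPKM, and the read depth behind them is unknown. Fewer transcripts per cell and fewer cells that hold a transcript cannot be told apart in these whole eggs and larvae. None of the identifiers (0) matched the 17178 genes of the annotation used here, so no gene names, sequences, pathways or marker genes could be assigned, and at most 2 identifiers per direction are named.

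Switching groups were a small part of the assembly. Of the 51527 groups, 5238 held 2 or more components, with up to 10, and 18 of these (0.344%) held both kinds. Across all 57962 components, 1612 (2.78%) met the egg condition and 8000 (13.8%) met the larval condition. The 19 egg-biased members were thus taken from the 210 egg-biased components (1.8%) and the 19 larva-biased members from the 1475 larva-biased components (12.6%) among the 11673 components in groups of 2 or more. The 18 groups together made up 0.0874% of all egg FPKM and 0.0637% of all larval FPKM. They comprised 13 groups of 2 components, 2 of 3, 2 of 4 and 1 of 5. In 16 of the 18 groups there was exactly 1 member of each kind. None (0) of the 18 had a gap in its subcomponent numbers, and such gaps were rare in all groups of 2 or more (68 of 5238, 1.30%).

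The widest exchange was that of comp26776_c0 and comp26776_c1. comp26776_c0 stood at 31.7 FPKM in eggs and was listed at 0 in larvae. comp26776_c1 measured 0.365 FPKM in eggs against 40.4 FPKM in larvae. On the log2(FPKM + 1) scale the larval level minus the egg level was -5.03 for the first and 4.92 for the second, a gap of 9.96 within the group. Each stage therefore had almost all of the group's level in the component that the other stage nearly lacked. The egg-biased component held 1 transcript and the larva-biased one held 13.

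The next widest was that of comp22688_c1 and comp22688_c0. comp22688_c1 went from 31.5 FPKM in eggs to 0.155 FPKM in larvae, a log2 difference of -4.82. comp22688_c0 went the other way, from 1.67 FPKM to 53.9 FPKM, a difference of 4.36. Here the larva-biased component was already measurable in eggs, where it made up 5.03% of the group's summed level. Both components held a single transcript.

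In 3 further groups both kinds of member also differed by more than 8-fold between the stages on the log2(FPKM + 1) scale. In the group with the third widest gap, the egg-biased component was at 21.8 FPKM in eggs and the larva-biased one at 18.6 FPKM in larvae, and each was listed at 0 in the other stage. In the fourth, the egg-biased component was at 15.0 FPKM in eggs and the larva-biased one at 14.3 FPKM in larvae, again with each listed at 0 in the other stage. In these 2 groups the members thus had no measured overlap between the stages. A listed 0 was not particular to them. In other groups of 2 or more, 42 of 191 egg-biased components were listed at 0 in larvae. Of the 1456 larva-biased ones there, 859 were listed at 0 in eggs. The fifth was the most abundant of the 5, with an egg-biased component that went from 89.4 FPKM in eggs to 3.86 FPKM in larvae. Its larva-biased component went from 6.10 to 84.1 FPKM, so that both components were present in both stages but in opposite order.

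**Figure D1:**
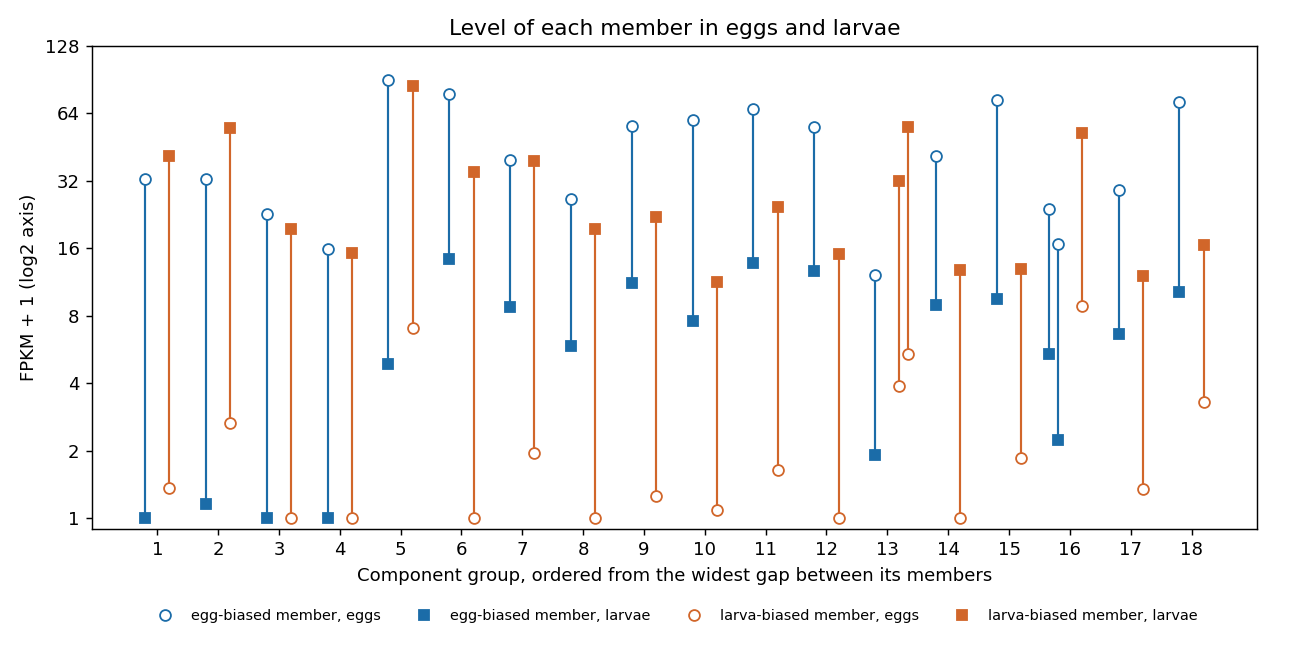
Level of each of the 38 members in eggs (open circles) and larvae (filled squares), as FPKM + 1 on a log2 axis, for the 18 groups ordered from the widest gap. Egg-biased members (blue) end near 1, that is near 0 FPKM, in larvae in the first 4 groups, and between 0.925 and 13.3 FPKM in the groups from the fifth on, while larva-biased members (orange) run the other way.

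In the other 13 groups a member differed by less than 8-fold on the log2(FPKM + 1) scale. The added 1 FPKM makes these folds smaller than those of the FPKM themselves. The egg-biased side did so in all 13 and the larva-biased side in 3 of them. Over all 19 egg-biased members, egg levels ran from 11.2 to 89.4 FPKM with a median of 38.8, and larval levels from 0 to 13.3 FPKM with a median of 5.62. Of these 19, 3 were listed at 0 in larvae, and 5, including these 3, were below 1 FPKM there. A further 10 were between 1 and 10 FPKM and 4 were at 10 FPKM or more. Thus 14 of the 19 egg-biased members were at 1 FPKM or more at 8 hpf. Over the 19 larva-biased members, larval levels ran from 10.3 to 84.1 FPKM with a median of 21.0, and egg levels from 0 to 7.83 FPKM with a median of 0.365. Of these 19, 6 were listed at 0 in eggs, 13 were below 1 FPKM and 6 were at 1 FPKM or more. The median difference was -2.66 for the egg-biased and 3.90 for the larva-biased members.

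As deposited, the same unevenness between the directions was present outside the switching groups. Of the 191 egg-biased components in other groups of 2 or more, 24.1% were below 1 FPKM in larvae, against 26.3% of the 19 members. Of the 1456 larva-biased components in other groups of 2 or more, 88.2% had an egg level below 1 FPKM, as did 68.4% of the 19 members. Their median differences were -2.66 and 4.24. No test was made of these differences, since components are not replicates and the rule used these levels.

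Groups in which the egg-biased component was still measured in larvae are shown by those with the sixth to ninth widest gaps. In the sixth, the egg-biased component went from 77.3 to 13.3 FPKM, while the larva-biased one was listed at 0 in eggs and reached 34.1 FPKM, a difference of 5.13 and the largest of the 19 larva-biased members. In the seventh, the egg-biased component went from 38.8 to 7.78 FPKM and the larva-biased one from 0.965 to 38.3 FPKM, so the leading component of each stage had nearly the same level. In the eighth, the values were 25.6 and 4.87 FPKM for the egg-biased and 0 and 18.6 FPKM for the larva-biased component. The ninth had 55.4 and 10.2 FPKM for the egg-biased component and 0.255 and 21.0 FPKM for the larva-biased one. In each of these 4 groups the larval component was nearly missing in eggs while the egg component was not missing in larvae.

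The other groups of 2 components had narrower gaps. In the eleventh, the egg-biased component went from 66.0 to 12.8 FPKM and the larva-biased one from 0.645 to 23.5 FPKM. In the twelfth, they went from 54.5 to 11.7 FPKM and from 0 to 14.1 FPKM, which left the pair close to level in larvae. In the fourteenth, they went from 40.3 to 7.98 FPKM and from 0 to 11.8 FPKM. Taken each at its own stage, the egg-biased component of these 3 groups was 2.81, 3.85 and 3.41 times as abundant as the larva-biased one. The fifteenth showed the most uneven pair, with an egg-biased component that went from 72.2 to 8.55 FPKM and a larva-biased one that went from 0.850 to 11.9 FPKM. The seventeenth had 28.3 and 5.62 FPKM for the egg-biased and 0.350 and 11.1 FPKM for the larva-biased component. The eighteenth, with the narrowest gap (5.14), had 71.0 and 9.18 FPKM against 2.32 and 15.5 FPKM. Its larva-biased component was also the larva-biased member with the smallest difference, 2.32 on the log2 scale.

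As deposited, the egg level of the egg-biased component exceeded the larval level of the larva-biased one in 14 of the 18 groups, with a median ratio of 1.82 and a range from 0.203 to 6.07. In 7 groups the levels were within 2-fold of each other. This comparison across the columns depended on scaling: with larval values raised 1.80-fold by a trimmed mean of log ratios, the egg level was the higher in 9 of the 18 groups with a median ratio of 1.01. Upper-quartile scaling made it the higher in all 18, with a median ratio of 11.7. The trimmed mean used components at 1 FPKM or more in both stages. Taken over all values above 0, it instead lowered larval values 1.36-fold. The egg level was then the higher in 15 of the 18 groups, with a median ratio of 2.47. Across the 18 groups the egg level of the first and the larval level of the second had a Pearson's r of -0.11 on the log2 scale and a Spearman's rho of -0.09, both confined by the rule to the same range of 10 to 100 FPKM.

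The make-up of the groups turned over between the stages. In eggs, the egg-biased members held a median of 98.8% of their group's summed FPKM (11.5% to 100%), and the larva-biased members a median of 1.05% (0% to 16.8%). In larvae, the larva-biased members held a median of 69.6% (17.3% to 100%), and the egg-biased members a median of 18.8% (0% to 45.2%). The highest egg-biased member stood above the highest larva-biased member in eggs in all 18 groups, and below it in larvae in all 18. The most abundant component of the whole group changed in 16 of the 18. For reference, among all 774 groups of 2 or more whose top component reached 10 FPKM in both stages, the top component changed in 147 (19.0%), a count that includes these 16. The rule favours such changes, so nothing is read from the contrast.

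**Figure D2:**
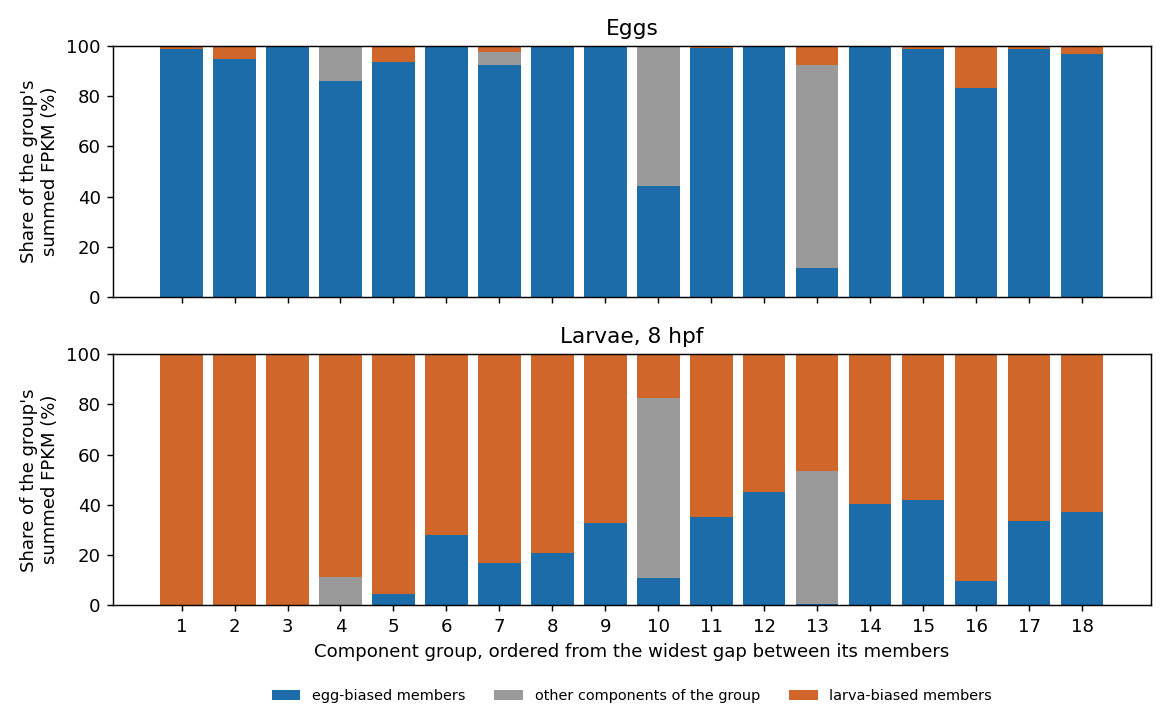
Share of each group's summed FPKM held by its egg-biased members (blue), its larva-biased members (orange) and its other components (grey), in eggs (upper panel) and in larvae at 8 hpf (lower panel), for the 18 groups ordered from the widest gap. Blue fills most of 16 bars in eggs, and orange fills the larger part of 16 bars in larvae, with the tenth and thirteenth groups as the exceptions.

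The tenth and the thirteenth groups were led by a component that was not a member. In the tenth, of 4 components, the egg-biased member went from 58.6 to 6.55 FPKM and the larva-biased one from 0.085 to 10.3 FPKM. A non-member of that group went from 73.2 FPKM in eggs to 34.6 FPKM in larvae and was the most abundant in both stages, and another was listed at 0 in eggs and stood at 8.09 FPKM in larvae, just below the level limit. In the thirteenth, of 5 components, the leading one went from 77.3 to 93.7 FPKM and held 13 transcripts. Beside this nearly level component, 1 egg-biased member went from 11.2 to 0.925 FPKM and 2 larva-biased members went from 2.88 to 30.9 FPKM and from 4.39 to 54.9 FPKM. In both groups the exchange thus took place among the weaker components.

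The sixteenth group was the only one of the 18 with 2 egg-biased members. They went from 15.7 to 1.23 FPKM and from 23.0 to 4.39 FPKM, and the larva-biased member went from 7.83 to 51.2 FPKM. That member had the highest egg level of all larva-biased members. In all, 7 components of the 18 groups were not members, and 5 of the 7 lay in the tenth, the thirteenth and the fourth groups. Those not yet given went from 0.935 to 3.72 FPKM in the thirteenth and from 2.44 to 1.79 FPKM in the fourth. The other 2 belonged to the seventh group, with 2.17 FPKM in eggs and 0 in larvae for the first and 0 in both stages for the second.

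Summed over all their components, the groups differed less between the stages than their members in the deposited values. The summed level ran from 17.4 to 131.9 FPKM in eggs (median 50.5) and from 16.1 to 184 FPKM in larvae (median 33.7). The larval sum minus the egg sum, both as log2(FPKM + 1), had a median of -0.46 (interquartile range -0.96 to 0.07) and ran from -1.79 to 0.92. The sum was within 2-fold in 14 of the 18 groups, at least 2-fold lower in larvae in 4, and 4-fold apart in none (0) on this scale. It was lower in larvae in 13 groups and higher in 5. This split depended on scaling. For the same 18 groups the median became 0.36 after trimmed mean scaling, with 6 sums lower in larvae. With the trimmed mean over all values above 0 it was -0.88, with 16 lower. It was -1.41 after quantile normalization, with 16 lower, and -2.88 after upper-quartile scaling, with 18 lower and 16 of them 4-fold apart. In the 5 groups whose members both passed 8-fold, the sum differed by -0.22 to 0.69. Among the 13 others, the sum was lower in larvae in 10.

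All groups of 2 or more give the background for these sums. Of the 2451 such groups with a summed level of 10 FPKM or more in a stage, 405 (16.5%) were within 2-fold, and their median difference was 3.57 (interquartile range -0.32 to 4.64). A group that holds an egg-biased and a larva-biased component within the same range of levels is bound to be more even in its sum, so this contrast follows in part from the rule and was not tested.

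**Figure D3:**
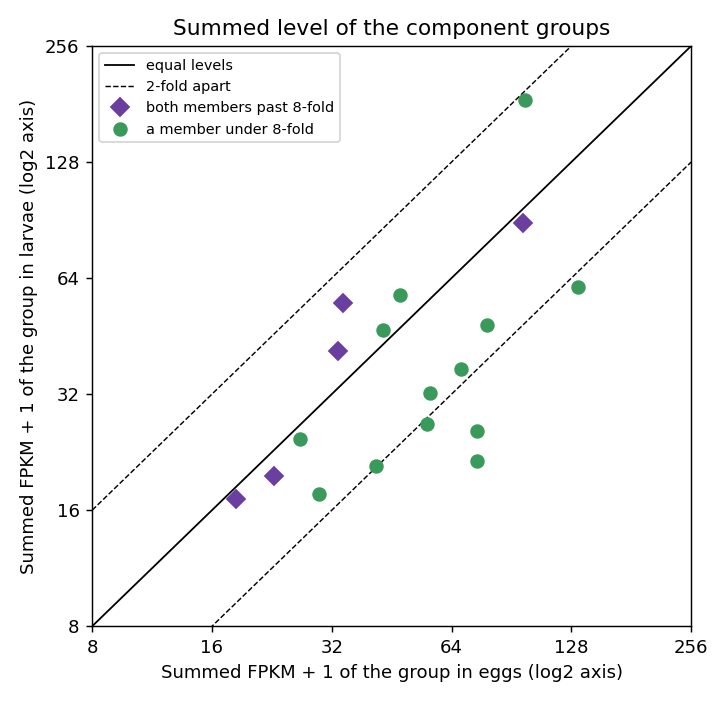
Summed FPKM + 1 of each of the 18 groups in eggs (horizontal, log2 axis) and in larvae (vertical, log2 axis), with the line of equal levels (solid) and the 2-fold limits (dashed). The 5 groups whose members both passed 8-fold (purple diamonds) lie between -0.22 and 0.69 of the solid line on the log2 scale, and 4 of the other groups (green circles) lie below the lower dashed line.

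In groups of 2 or more there were 20 distinct pairs of an egg-biased with a larva-biased component, 17 pairs of egg-biased components and 219 pairs of larva-biased ones, among 8126 pairs in all. Egg-biased components in groups of 2 or more had 268 partners in their groups, counted once for each component and partner, and 20 of these (7.46%) were larva-biased, against 13.3% of the 16252 partners of any component. Of the same partners, 34 of the 268 (12.7%) were themselves egg-biased, against 1.65% of the partners of any component. The 34 are the 17 pairs counted from each side, while each mixed pair is counted once from its egg-biased component. With partners below 1 FPKM in both stages left out, the shares were 10.8% and 22.2% for larva-biased partners, and 18.3% and 2.76% for egg-biased ones. Larva-biased components likewise had larva-biased partners in 33.4% of 1311 and egg-biased partners in 1.53%. With a pseudocount of 10 FPKM these orders did not hold: larva-biased partners came to 5.08% for egg-biased components and 4.21% for any, and egg-biased ones to 0% and 0.363%. In the other 11 of 12 alternatives both orders were as deposited. Components of a group may share sequence and reads, and no test was made of these shares.

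**Figure D4:**
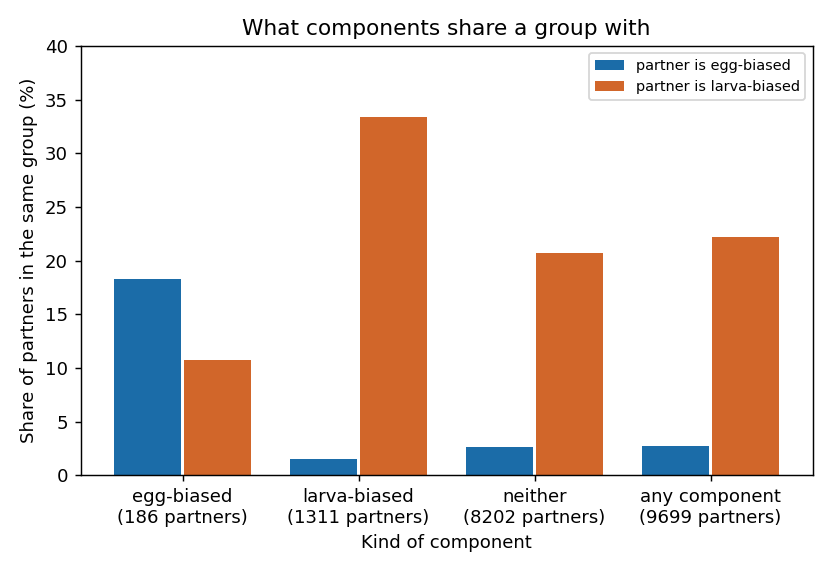
Share of partners in the same group that were egg-biased (blue) or larva-biased (orange), in percent, for egg-biased, larva-biased, other and all components of groups of 2 or more, over partners at 1 FPKM or more in a stage. Egg-biased components had egg-biased partners in 18.3% and larva-biased ones in 10.8%, against 2.76% and 22.2% for any component.

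By number of components, the groups of 2 gave 13 switching groups among the 158 that held an egg-biased component (8.23%). Of the 4197 groups of 2 without an egg-biased component, 954 (22.7%) held a larva-biased one, although these have 2 components that could be larva-biased in place of 1. Among groups of 3, the counts were 2 of 24 (8.33%) and 218 of 661 (33.0%). Among groups of 4 or more, they were 3 of 11 (27.3%) and 91 of 187 (48.7%). Over all sizes, 18 of 193 groups with an egg-biased component (9.33%) and 1263 of 5045 groups without one (25.0%) held a larva-biased component. At every size, a group with an egg-biased component has fewer components left that could be larva-biased. In 13 of the 158 groups of 2 both were egg-biased, so none was left. The contrast thus follows in part from the definition, and nothing is read from it. Seen from the other side, the 18 switching groups were 1.41% of the 1281 groups that held a larva-biased component. Groups with 2 or more egg-biased components numbered 17, about as many as the switching groups, and groups with 2 or more larva-biased components numbered 176.

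In groups of 2, the stage differences of the components were positively correlated, and more strongly among pairs chosen by level. Among the 398 groups of 2 in which each component reached 10 FPKM in a stage, 126 (31.7%) had both components higher in larvae by 4-fold or more and 31 (7.79%) had both lower by as much. Over all 57962 components as deposited, at any level, 28.8% were higher in larvae by 4-fold or more and 4.4% were lower. These include components near 0 in both stages, which cannot reach 4-fold on this scale. Among partners at 1 FPKM or more in a stage, in groups of 2 or more, the shares were 51.0% and 5.66%. All of these are shares of single components and not of pairs, and none of them used the limit of 10 FPKM. A component could pass that limit in its higher stage alone, so the choice of the 398 groups used the compared values. How far this choice shaped the shares and correlations given here was not tested. In 22 of the 398 groups (5.53%) the components went opposite ways by at least 4-fold. Of these 22, 13 were switching groups, and in the other 9 a component exceeded the upper level limit. Across these 398 pairs the differences of the lower-numbered and higher-numbered component had a Pearson's r of 0.61 and a Spearman's rho of 0.59, and across all 4355 groups of 2 they had 0.25 and 0.27. These correlations are over pairs taken from the same libraries, and the pairs are not independent replicates.

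**Figure D5:**
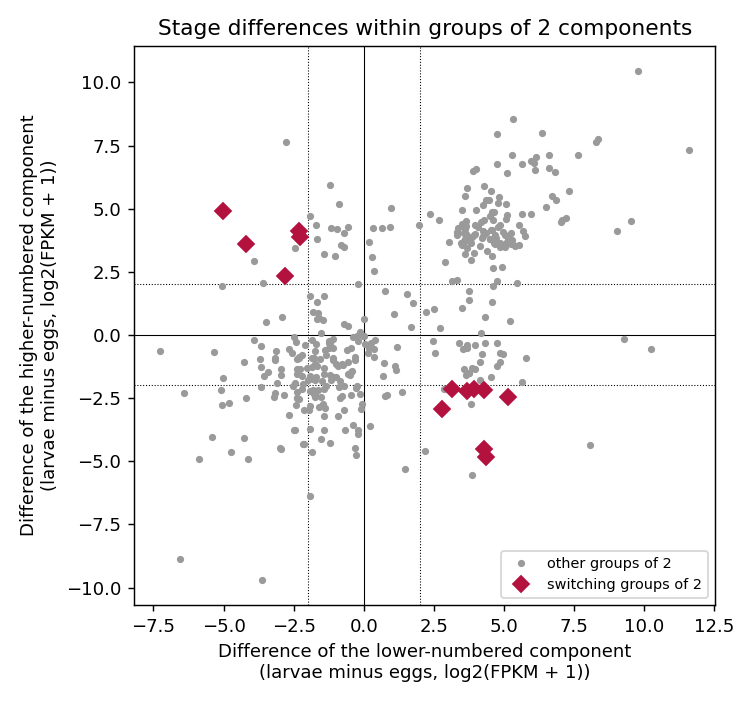
Difference between larvae and eggs on the log2(FPKM + 1) scale for the lower-numbered (horizontal) and higher-numbered (vertical) component of the 398 groups of 2 in which each reached 10 FPKM in a stage, with dotted lines at the 4-fold limits. The 13 switching groups (red diamonds) lie in the upper left and lower right corners, while 126 groups lie past both limits at the upper right and 31 at the lower left.

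The number of transcripts, which the rule did not use, differed between the kinds of member in 1 direction. Of the 19 egg-biased members, 16 (84.2%) held a single transcript, 3 held 2 and none (0) held 3 or more. Of the 19 larva-biased members, 11 (57.9%) held a single transcript, 3 held 2 and 5 (26.3%) held 3 or more, up to 13. Within groups, the larva-biased side held more transcripts in 8 groups, the sides were equal in 10 and the egg-biased side held more in none (0). The thirteenth group counts here with 2 larva-biased components and the sixteenth with 2 egg-biased ones. This order was not particular to the switching groups: in other groups of 2 or more, 70.7% of 191 egg-biased and 48.5% of 1456 larva-biased components held a single transcript, and 13.6% and 35.9% held 3 or more. Transcripts are a product of the assembly, and whether reads of both stages built it alike was not tested.

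The numbering of the subcomponents did not separate the kinds. The lowest-numbered larva-biased member came before the lowest-numbered egg-biased one in 11 groups and after it in 7. The subcomponent numbered 0 was an egg-biased member in 6 groups and a larva-biased member in 10.

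Some groups lay close to the limits of the rule. The group kept by the smallest margin was the twelfth, whose egg-biased component went from 54.5 to 11.7 FPKM, a difference of -2.13, beside one of 3.92. Just outside lay a group with a component at 31.9 FPKM in eggs that was listed at 0 in larvae, and a partner that went from 9.36 to 38.8 FPKM, a difference of 1.94. Another just outside had a component at 58.9 and 15.0 FPKM, a difference of -1.90, beside one of 4.70. In all, 302 groups held a component at 10 to under 100 FPKM in eggs beside another at that level in larvae. In the most opposed pair of each, the smaller of the egg-biased and larva-biased differences was 2 or more in size in the 18 kept groups, 1 to under 2 in 33 and 0 to under 1 in 51. In the remaining 200, no such pair combined a fall of the component at that level in eggs with a rise of the one at that level in larvae.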

How the data were processed

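The deposited FPKM values were made by the authors with RSEM, per the submitters' processing notes. No source used here states its version, the assembler, filters or genome build. The deposited values are linear, although named as log2. Each column was read as the authors' mean of its stage, and 0 columns of other samples were present. From these values, differences were computed as log2(FPKM + 1), larvae minus eggs, with limits of 10, 100 and 4-fold and no filter. The identifiers named are those of the 2 groups with the largest gap between a larva-biased and an egg-biased member. The members and lists were chosen with earlier results of these data known. No test was possible without replicate values. Alternatives were pseudocounts of 0.1 and 10 FPKM, 4 scalings (trimmed mean over components at 1 FPKM or more in both stages, with 30% of ratios and 5% of abundances trimmed, upper quartile, quantile, and sums of 1000000), a filter at 1 FPKM, limits of 2-fold and 8-fold, no upper level limit and a lower one of 20 FPKM. A trimmed mean over all values above 0, the shares by group and the scalings of the 18 groups held fixed were added after seeing the data. The code was tested on simulated data. Tools were Python 3.11.15 with scipy 1.17.1, pandas 2.3.3, matplotlib 3.10.9 and numpy 2.4.6.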

Additional observations from a re-analysis of the deposited data

How the results depend on the processing

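No paired analysis was possible because the columns are stage means without replicate numbers, and leaving out a replicate could not be done for the same reason. The 18 groups, 19 egg-biased and 19 larva-biased members became 5, 6 and 6 under upper-quartile scaling, 3, 3 and 3 with 10 FPKM as the pseudocount, 51, 53 and 53 at a 2-fold limit, 5, 5 and 5 at an 8-fold limit, 33, 34 and 37 without an upper level limit, and 8, 8 and 8 from 20 FPKM. Trimmed mean scaling left 11 groups and 11 egg-biased members. Which groups were kept also changed: of the 18, 9 were kept under trimmed mean scaling, 13 after rescaling to 1000000, 8 under quantile normalization (of its 22) and 0 after upper-quartile scaling, which lowers every larval value 6.44-fold. The 4 named components stayed members under each alternative except upper-quartile scaling, but their differences moved. That of comp26776_c1 (4.92) ran from 2.28 with a pseudocount of 10 FPKM to 6.45 with 0.1 FPKM. For comp26776_c0 (-5.03) these pseudocounts gave -2.06 and -8.31, and for comp22688_c1 (-4.82) -2.03 and -6.95. That of comp22688_c0 (4.36) ran from 1.81 after upper-quartile scaling to 5.19 after trimmed mean scaling. The 4 were picked for the widest gaps in these same values, so their membership says nothing about how stable the other members are. Over the groups that each alternative selected, the median difference of the summed levels (-0.46) was -0.23 with a pseudocount of 0.1 FPKM and 0.26 with 10 FPKM. It was 0.035 under quantile normalization, -1.21 under upper-quartile scaling, 0.70 under trimmed mean scaling, -0.25 after rescaling to 1000000, -0.22 and -0.10 at limits of 2-fold and 8-fold, -0.75 without an upper limit and 0.0074 from 20 FPKM. Over all values above 0 the trimmed mean instead lowered larval values 1.36-fold, and the median was -0.53. The share of groups with an egg-biased component that held a larva-biased one (9.33%) was 0.761% after upper-quartile scaling, 3.90% after quantile normalization, 4.97% from 20 FPKM, 6.12% with 10 FPKM as the pseudocount, 11.6% after trimmed mean scaling and 13.1% with the filter. For groups without one (25.0%) it was 7.88% with a pseudocount of 10 FPKM, 34.1% after trimmed mean scaling (20.7% over all values above 0), 3.99% after upper-quartile and 13.5% after quantile scaling, 22.0% after rescaling to 1000000, 36.9% with the filter, 27.0% and 23.0% at limits of 2-fold and 8-fold, 28.1% without an upper limit and 14.6% from 20 FPKM. Groups with an egg-biased component have fewer components left to be larva-biased, so these shares differ in part by definition under every setting. The cause of these changes was not tested.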
